A study of Mus musculus with 3 samples.

Results

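The D cyclins, the cyclin-dependent kinases they and their partners drive, and the inhibitors of those kinases form the gene set described here, as seen by ATAC-seq in mouse myeloid progenitors. It holds 10 genes, Ccnd1, Ccnd2, Ccnd3, Cdk4, Cdk6, Cdk2, Cdkn1a, Cdkn1b, Cdkn2c and Cdkn2d, of the 21887 protein-coding genes of the annotation. They were chosen by name, and the accessible regions of each were those that overlapped its gene span or the 20 kb on either side, called its locus below. These loci took in 265 of the 182233 regions listed at 0 h, 252 of the 178055 of the 6 h list and 236 of the 145044 of the 72 h list.

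ATAC-seq uses a transposase that cuts and tags open DNA, so a listed region is a stretch where cuts piled up above background. All 3 libraries came from ECOMG cells, a mouse myeloid progenitor line grown with GM-CSF and β-estradiol, with genotype FKBP12F36V_NIPBL, in which NIPBL, the loader of the DNA-looping cohesin complex, is fused to a degradation tag. One library was taken at 0 h without dTAG, the compound that sends the tagged protein for breakdown, one after 6 h with dTAG and one after 72 h with dTAG, and estradiol was present in each. With 1 library at each time there is no replicate check on any difference below, and dTAG, time in culture and the library itself cannot be told apart. The labels do not say whether the line is 1 clone, and no library without the tag is used here. In bulk cells, fewer cells with an open site and less opening per cell cannot be told apart.

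In the G1 phase of the cell cycle, D-type cyclins bind CDK4 or CDK6, and these kinases phosphorylate the retinoblastoma protein, which frees E2F factors to turn on the genes of DNA replication. Cyclin E with CDK2 continues that step. The INK4 inhibitors, such as those encoded by Cdkn2c and Cdkn2d, bind CDK4 and CDK6 alone, whereas the Cip/Kip inhibitors encoded by Cdkn1a and Cdkn1b bind cyclin-CDK complexes including those of CDK2. Progenitors leave the cell cycle as they mature into neutrophils, and these genes are part of how that exit is set.

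The promoter sequences of 3 kinases and of both Cdkn1a starts are shown first, because the accessible regions at these starts carry several of the observations below. Each is the 250 bases just before a RefSeq start, read 5′ to 3′ on the gene's strand (build GRCm38.p6, the assembly of mm10), and the capitals mark matches to the motifs described after them.
Cdk4, chr10:127063285-127063534, plus strand: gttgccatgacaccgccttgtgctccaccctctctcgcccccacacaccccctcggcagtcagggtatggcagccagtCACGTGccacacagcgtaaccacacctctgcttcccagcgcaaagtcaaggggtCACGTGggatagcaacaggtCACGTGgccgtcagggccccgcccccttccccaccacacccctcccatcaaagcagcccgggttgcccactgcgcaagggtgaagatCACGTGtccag
Cdk6, chr5:3343643-3343892, plus strand: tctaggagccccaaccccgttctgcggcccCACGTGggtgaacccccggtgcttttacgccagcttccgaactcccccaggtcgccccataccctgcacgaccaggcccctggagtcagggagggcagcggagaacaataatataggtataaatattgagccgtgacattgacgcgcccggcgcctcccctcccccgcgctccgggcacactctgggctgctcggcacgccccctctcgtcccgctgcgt
Cdk2, chr10:128705052-128705301, minus strand: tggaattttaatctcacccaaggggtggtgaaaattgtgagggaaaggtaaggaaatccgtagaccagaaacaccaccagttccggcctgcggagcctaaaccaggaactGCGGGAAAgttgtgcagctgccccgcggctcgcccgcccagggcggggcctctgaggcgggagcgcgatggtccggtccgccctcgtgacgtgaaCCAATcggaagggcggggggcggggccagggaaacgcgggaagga
Cdkn1a upstream start, chr17:29090729-29090978, plus strand: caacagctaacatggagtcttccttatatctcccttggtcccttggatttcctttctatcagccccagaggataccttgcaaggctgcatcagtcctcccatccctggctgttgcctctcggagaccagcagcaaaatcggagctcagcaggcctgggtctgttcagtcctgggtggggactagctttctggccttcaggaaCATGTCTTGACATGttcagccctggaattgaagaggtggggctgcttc
Cdkn1a downstream start, chr17:29093519-29093768, plus strand: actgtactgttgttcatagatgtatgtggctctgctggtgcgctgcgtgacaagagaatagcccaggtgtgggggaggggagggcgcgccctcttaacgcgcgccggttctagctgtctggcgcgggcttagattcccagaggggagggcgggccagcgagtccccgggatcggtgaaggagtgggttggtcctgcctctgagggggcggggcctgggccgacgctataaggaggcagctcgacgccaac

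The Cdk4 promoter held 4 copies of the E-box CACGTG, a palindrome bound by MYC and related factors, at 172, 118, 98 and 11 bases before the start. An E-box was present in 6.63% of the 21263 promoters of protein-coding genes of the same length, and 4 or more copies in 0.0188% of them. The Cdk6 promoter held 1 E-box, 220 bases before the start. In the Cdk2 promoter the E2F motif, searched as TTTCCCGC or TTTGGCGC on both strands, matched once as its reverse complement GCGGGAAA at 140 bases before the start. That motif was present in 1.67% of promoters. The Cdk2 promoter also held a CCAAT box, present in 35.4% of promoters. Upstream of the first Cdkn1a start, the core of a p53 response element, searched as CATG, any 6 bases and CATG, matched as CATGTCTTGACATG at chr17:29090931-29090944, 48 bases before the start. It was present in 0.423% of promoters, and this motif was added after the values were seen. All of these matches lay inside a listed region at 0, 6 and 72 h. No printed promoter matched the searched letters for CRE (TGACGTCA), AP-1 (TGANTCA), C/EBP (TTGCGCAA or TTGCNNAA), PU.1 (GAGGAAG), RUNX (TGTGGTTT), STAT (TTCNNNGAA) or for CTCF, on either strand, which says only that these letters were not in these windows. The GC box GGGCGG, found in 42.6% of promoters, was searched too and is left in lower case. Among the member promoters not printed, that of the downstream Cdkn2c start held a PU.1 match, CTTCCTC on the other strand, 151 bases before the start. It lay outside any listed region at 0, 6 and 72 h, and 10.3% of promoters held that motif. Unprinted promoters of Ccnd3, Cdkn1b and Cdkn2d held CCAAT boxes inside listed regions.

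By the main count of regions the 10 loci stood close to all coding loci at 72 h. They held 236 regions at 72 h and 265 at 0 h, a ratio of 0.891 (95% interval 0.744 to 1.07), against 0.850 over all coding loci. At 6 h they held 252, a ratio to 0 h of 0.951 (0.797 to 1.13), against 0.978 over all. These intervals cover counting error only and treat both counts as independent. At 72 h, 7 of the 10 loci had fewer regions than at 0 h and 3 had more, where 65.7% of 19413 coding loci had fewer and 22.4% had more. At 6 h, 6 had fewer, 1 had more and 3 had the same number, where 43.5% of coding loci had fewer and 35.9% had more. The 6 h split depends on how regions are counted: 4 loci had more with flanks of 10 kb or 50 kb, with lists cut to equal size or with near regions merged, and 6 with a −log10 q of at least 10. The median number of regions per member locus was 19.0 at 72 h, against 22.0 at 0 h, and over all coding loci it was 9 at 72 h, against 11 at 0 h.

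Counting only regions with a fold of at least 10 gave the other direction. The fold is the height of a region's summit over the peak caller's background, a value of the authors that rests on each list's own background. The same limit of 10 was set on each list, so counts past it compare the lists only as far as their folds are on 1 scale, which was not tested. The 10 loci held 128 such regions at 72 h and 107 at 0 h, a ratio of 1.20 (0.918 to 1.56), against 1.11 over all coding loci. By this count 7 of 10 loci had more at 72 h than at 0 h and 1 had fewer, where 47.0% of coding loci had more and 30.5% had fewer. At 6 h, 4 had more and 2 fewer, where 36.7% of coding loci had more and 22.3% fewer. The median fold of all regions also differed, at 6.80, 7.54 and 9.37 in the lists of 0, 6 and 72 h. Whether either count moves with how each list was called was not tested.

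**Figure D1:**
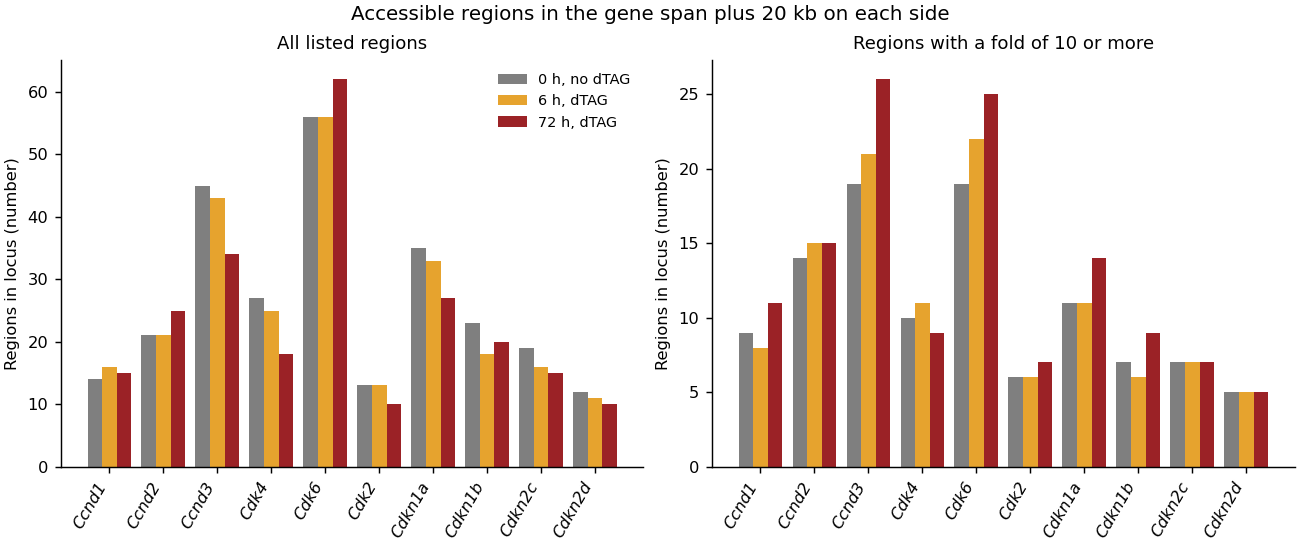
Number of listed regions in each of the 10 loci (gene span with 20 kb on each side) at 0, 6 and 72 h, for all regions and for regions with a fold of at least 10. Cdk6, Ccnd2 and Ccnd1 were the loci with more regions at 72 h than at 0 h, and Cdk4 was the one with fewer regions of fold 10 or more.

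Of the 265 regions at 0 h, 171 were overlapped by at least 1 bp at 72 h, a share of 64.5% (58.4 to 70.3), against 59.8% of all 0 h regions, of which 40.2% had no overlap at 72 h. Strong regions, those in the upper 50% of their own list by −log10 q, were retained more often: of the other 124 regions at 0 h, 42 were overlapped at 72 h, or 33.9%, against 31.1% of all such regions. At 72 h, 12 of the 141 strong 0 h regions in these loci had no overlap, a share of 8.51% (4.48 to 14.4), where 15.7% of all strong 0 h regions had none. Conversely, 8 of the 132 strong regions at 72 h had no overlap at 0 h, or 6.06% (2.65 to 11.6), where 7.21% of all strong 72 h regions had none. At 6 h, 2 of the 141 strong 0 h regions had no overlap (1.42%, 0.172 to 5.03), where 2.48% of all had none. Of the 149 strong regions at 6 h, 4 had no overlap at 0 h (2.68%, 0.736 to 6.73), where 1.71% of all had none. Each of the 12 strong regions absent at 72 h was still overlapped at 6 h. The member shares at 6 h lay within counting error of those of the whole lists.

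All 3 lists together placed 336 sites in these loci, a site being a set of regions joined by overlap across the lists. Of these, 148 were listed at all 3 times, or 44.0%, against 41.3% of all 237542 sites. A further 46 sites were listed at 0 and 6 h only (13.7%, against 15.1% of all), 10 at 0 and 72 h only (2.98% against 2.51%) and 14 at 6 and 72 h only (4.17% against 3.74%). Of the rest, 39 were listed at 0 h only (11.6% against 15.1%), 36 at 6 h only (10.7% against 12.2%) and 43 at 72 h only (12.8% against 10.0%). By position, 126 sites lay inside the gene span, 138 in the flank, 28 within 1 kb of the gene's own start, 4 within 1 kb of an end of its own span and 40 within 1 kb of an end of a neighbouring gene. Most of the sites were thus away from the genes' own starts, but the start window was 1 kb and the loci ran from 43.0 to 230 kb. Places were not counted over all coding loci. Except for that of Cdkn1b, each locus also reaches at least 1 other coding gene, to which its regions may belong.

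The regions in these loci were somewhat longer than those of the lists, with a median of 137, 154 and 164 bp at 0, 6 and 72 h against 130, 135 and 153 bp overall. They covered 61.3, 62.5 and 52.4 kb, while all regions covered 34.1, 34.3 and 29.9 Mb. Those of 1 kb or more numbered 7, 8 and 3, while in the whole lists they numbered 2285, 2261 and 1065, also fewest at 72 h. Of the 265 regions at 0 h, 10 were overlapped by 2 or more regions at 72 h (3.77%), where 2.91% of all 0 h regions were, and 5 by 2 or more at 6 h (1.89%), where 2.02% were. The divided regions at 72 h included the start regions of Cdk2, Cdkn1a and Cdkn2d and both long regions at the Ccnd2 span end. Of these, the Cdkn2d region was overlapped by 3 regions at 6 h and 2 at 72 h, and each of the Ccnd2 regions by 2 at 6 h.

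Nearly all members kept a region at their start. A region within 1 kb of the gene's start was present for 10 of 10 genes at 0 h, 10 at 6 h and 9 at 72 h, against 62.1%, 61.7% and 57.6% of all coding genes. Ccnd1 was the 1 gene with a start region at 0 h and none at 72 h, a pattern seen in 8.55% of the coding genes that had one at 0 h. No member lost its start region at 6 h, where 3.47% of coding genes did. For Ccnd1 and Ccnd2 either end of the gene span stood in for the start.

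**Figure D2:**
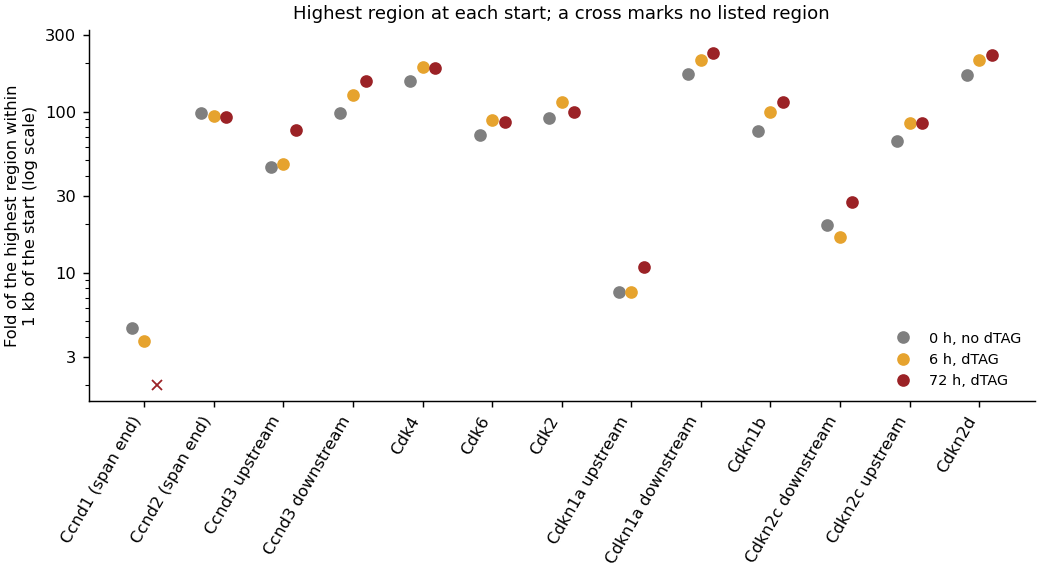
Fold (log scale) of the highest listed region within 1 kb of each gene start at 0, 6 and 72 h, with span ends used for Ccnd1 and Ccnd2. The folds stand on each list's own scale; Ccnd1 had no listed region there at 72 h, and the upstream Cdkn1a start stayed far lower than the downstream one at all 3 times.

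Among the D cyclins, which bind and activate CDK4 and CDK6, Ccnd1 had the least open locus by its highest region. Its locus (span chr7:144929931-144939831) held 14, 16 and 15 regions at 0, 6 and 72 h, of which 9, 8 and 11 had a fold of at least 10. Its span-end region, at 144939831, was low where listed, with folds of 4.54 and 3.77 at 0 and 6 h, at the percentiles 31.0 and 17.1 of those lists, and was not listed at 72 h. The highest region in the locus stood near the middle of all coding loci, at the percentiles 52.4, 52.6 and 49.8 by its list. The clearest open site inside the gene, at 144937533-144937815, had folds of 65.0, 64.0 and 59.3 at 0, 6 and 72 h. Strong regions new at 72 h lay at 144923115-144923223 and, inside the span, at 144933946-144934133, with folds of 9.37 and 10.1. Ccnd1 thus kept its main intragenic site while the weak region at its span end dropped out of the list.

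Ccnd2 had a broad open stretch at the higher-coordinate end of its span (chr6:127125162-127152188). The locus held 21, 21 and 25 regions at 0, 6 and 72 h, and 14, 15 and 15 of them had a fold of at least 10. The highest region at that end had a fold of 97.5, 93.4 and 92.1, and its length was 1794, 1081 and 442 bp. The stretch listed as 1 region at 0 h, at 127149608-127151401, was overlapped by 2 regions at 6 h and by 6 at 72 h. The count of Ccnd2 regions at 72 h therefore includes several short regions where 1 long one was listed at 0 h. A site in the flank, at 127162893-127163188, had folds of 39.3, 61.8 and 108 at 0, 6 and 72 h, and stood at the percentiles 82.3, 88.4 and 93.8 among the 98083 sites listed at all 3 times. The highest region of the locus lay at an end of the neighbouring gene Tigar, with folds of 126, 149 and 152.

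Ccnd3, the D cyclin with the largest number of sites in these lists, had a locus of 45, 43 and 34 regions at 0, 6 and 72 h (span chr17:47505051-47599689). Regions with a fold of at least 10 numbered 19, 21 and 26, so at 72 h the locus had fewer regions than at 0 h and more past that limit. It has 2 RefSeq starts in the table used. The region at the start at 47505051 had folds of 45.4, 47.5 and 77.3, and that at the start at 47593467 had 98.3, 127 and 155. Within the set of sites listed at all 3 times these starts held the percentiles 85.1, 83.9 and 89.4, and 95.9, 96.8 and 97.4. A site at 47507958-47508307, about 3 kb past the upstream start, was of similar height, with folds of 132, 130 and 128. In the flank a site at 47606355-47606498 went the other way in rank, with folds of 25.7, 18.1 and 7.81 and percentiles of 71.7, 57.8 and 28.0. A strong region at 47542434-47542565 (fold 9.83 at 0 h) was not listed at 72 h, and one at 47512085-47512284 (fold 20.3 at 72 h) was not listed at 0 or 6 h. At 6 h a strong region was new at 47603120-47603199 (fold 8.29). Summed over the 3 D cyclins, regions numbered 74 at 72 h and 80 at 0 h, a ratio of 0.925 (0.665 to 1.29).

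Cdk4 and Cdk6, the kinases that D cyclins activate, differed in direction by the number of regions. The ratio of 72 h over 0 h was 0.667 (0.346 to 1.26) at Cdk4 and 1.11 (0.759 to 1.62) at Cdk6. These intervals overlap and both include 1, and 65.7% of coding loci had fewer regions at 72 h and 22.4% more. The Cdk4 locus (span chr10:127063535-127067288) held 27, 25 and 18 regions at 0, 6 and 72 h, and 10, 11 and 9 with a fold of at least 10. It is a crowded stretch that also holds Mettl1, Cyp27b1, Marchf9, Tspan31 and Agap2, so its regions cannot be assigned to Cdk4 alone. The region over the start, which covers the 4 E-boxes printed above, had folds of 156, 188 and 187 and lengths of 794, 730 and 811 bp. Its summit lay 195, 214 and 203 bases before the start at 0, 6 and 72 h, and its site stood at the percentiles 99.3, 99.3 and 98.7. This start region was therefore among the highest of each list, with nearly the same place and width. A second site within 1 kb of the start, at 127062545-127062834, had folds of 18.9, 30.1 and 76.5 and percentiles of 61.7, 73.9 and 89.3. The strong regions not listed at 72 h lay at 127058580-127058716, 127059242-127059332 and 127072092-127072280, with folds of 10.6, 7.56 and 7.56 at 0 h. A strong region new at 6 h lay at 127066436-127066546 (fold 9.04), near an end of Tspan31.

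Cdk6 had the longest span (190 kb, chr5:3341004-3531008) and the most sites, 86. It held 56, 56 and 62 regions at 0, 6 and 72 h, and 19, 22 and 25 with a fold of at least 10. Its start region, at the RefSeq start 3343893, had folds of 71.8, 88.2 and 85.9 and lengths of 1063, 1063 and 1021 bp. Around that start 2 strong regions of 0 h, at 3342758-3343185 and 3343270-3343443 (folds 10.6 and 9.83), were not listed at 72 h. In the part of the span 100 kb or more past the start, 29 regions were listed at 72 h and 23 at 0 h, and 14 against 10 of them had a fold of at least 10. Between 10 and 100 kb past the start 20, 25 and 21 regions were listed at 0, 6 and 72 h, and 4, 8 and 7 of them had a fold of at least 10. The difference in all regions between 72 h and 0 h thus lay in the far part, while the high regions were more numerous in both stretches. These stretches were drawn after the values were seen.

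The highest region of the Cdk6 locus lay in that far part at all 3 times, about 151 kb past the start. It covered 3494430-3494680 at 0 h, 3494368-3494712 at 6 h and 3494402-3494712 at 72 h, with folds of 91.5, 122 and 181. Among the highest regions of all coding loci it stood at the percentiles 67.0, 73.8 and 87.7, and among the sites listed at all 3 times at 95.2, 96.4 and 98.5. Relative to the Cdk6 start region of the same list, its fold was 1.27, 1.38 and 2.11 times as high. The same ratio was taken for the 28 sites listed at all 3 times that lay inside the span and over 1 kb from the start. It was higher at 72 h than at 0 h at 20 of them and lower at 8, with a median of 0.227 at 72 h and 0.152 at 0 h. At 6 h it was higher at 14 and lower at 14. The sites inside the gene thus moved both ways against the gene's own start. A higher ratio was not particular to Cdk6. Over all sites of a locus listed at all 3 times, its median was also higher at 72 h than at 0 h at Ccnd2 (0.322 against 0.148), Cdk4 (0.257 against 0.162), Cdkn2d (0.303 against 0.161) and Cdkn1b (0.150 against 0.139). It was lower at Ccnd3, Cdk2, Cdkn1a and Cdkn2c. The ratio was not taken over all coding genes.

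Single Cdk6 sites moved much further in rank. The site at 3501630-3502034 had folds of 6.05, 9.04 and 42.2 and percentiles of 16.4, 29.8 and 78.7. That at 3387279-3387444 had folds of 4.54, 8.29 and 21.9 and percentiles of 6.65, 26.2 and 62.6. A site at 3420932-3421157 had folds of 10.6, 18.1 and 53.1 and percentiles of 39.4, 57.8 and 83.2. In rank, all 3 stood higher at 6 h than at 0 h and higher still at 72 h. The site at 3497202-3497377 went the other way, with folds of 27.2, 12.1 and 6.25 and a rank 53.9 points lower at 72 h than at 0 h. Strong regions new at 72 h against 0 h lay at 3462169-3462363 (fold 20.3, listed at 6 h too) and 3494776-3494977 (fold 11.7), and a strong region at 3420624-3420709 (fold 9.07 at 0 h) was not listed. At 6 h the strong regions not listed were those at 3501068-3501131 and 3516862-3517005, and both places held a region again at 72 h.

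**Figure D3:**
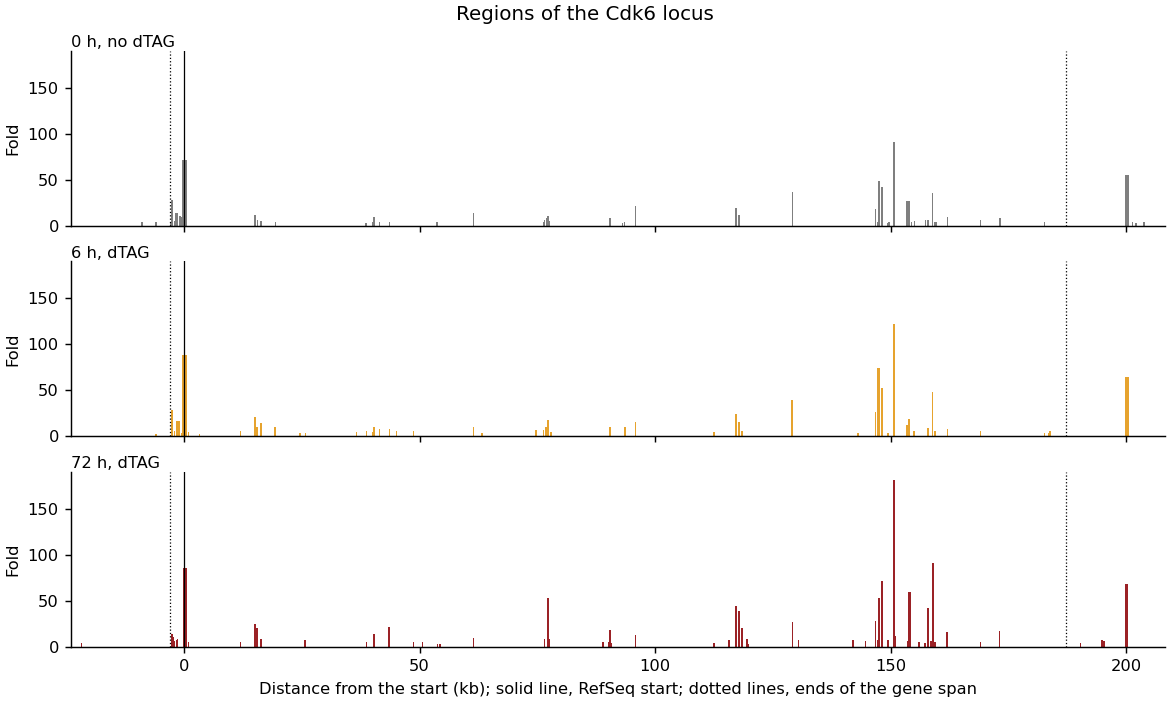
Listed regions along the Cdk6 span and its flanks at 0, 6 and 72 h, by distance from the Cdk6 start in kb, with the fold as height (solid line, start; dotted lines, span ends; narrow regions are drawn wider than they are). The highest region lay about 151 kb past the start in each list, and its folds were 91.5, 122 and 181.

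Cdk2, the kinase that cyclin E activates, had a small locus (span chr10:128697938-128705051) with 13, 13 and 10 regions at 0, 6 and 72 h. Those with a fold of at least 10 numbered 6, 6 and 7. The start region had folds of 90.7, 115 and 99.1, and it spanned 750 bp at 0 h and 768 bp at 6 h. At 72 h the 0 h region was overlapped by 2, the higher of them 273 bp long and a second at 128704501-128704844 with a fold of 18.7. All 8 Cdk2 sites listed at all 3 times moved by fewer than 25 points in rank. The highest region near Cdk2 lay at the facing ends of Rab5b and Pmel, with folds of 165, 194 and 274, and stood at the percentile 99.0 of all coding loci at 72 h. Summed over the 3 kinases, regions numbered 90 at 72 h and 96 at 0 h, a ratio of 0.938 (0.695 to 1.26).

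Cdkn1a encodes p21, the Cip/Kip inhibitor that p53 turns on. Its locus (span chr17:29090979-29100722) held 35, 33 and 27 regions at 0, 6 and 72 h, of which 11, 11 and 14 had a fold of at least 10. The downstream start at 29093769 carried 1 long region at 0 h, at 29093455-29096182 (2728 bp, fold 172), and 1 at 6 h, at 29093495-29096342 (2848 bp, fold 210). At 72 h the same stretch was listed as 4 regions, at 29093511-29094179 (fold 132), 29094355-29094590 (fold 30.4), 29094651-29095773 (fold 230) and 29096094-29096161. The summit stayed in place, 1759, 1750 and 1761 bases past that start at 0, 6 and 72 h. So the longest region of the group was listed in pieces at 72 h while its highest point kept its position, and the bases covered in the whole locus were 6889 at 72 h and 10279 at 0 h.

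The upstream Cdkn1a start at 29090979, with the p53 core motif, had far lower regions. Its highest region within 1 kb had folds of 7.56, 7.54 and 10.9 at 0, 6 and 72 h. At 72 h the region over the start itself, at 29090919-29091017, had a fold of 4.68, and the higher one lay at 29090650-29090764. Further upstream a site at 29078876-29079264 had folds of 63.5, 62.5 and 133 and percentiles of 90.7, 88.5 and 96.1. Strong regions not listed at 72 h lay at 29096949-29097030, 29098628-29098743 and 29117040-29117260, with folds of 6.80, 6.80 and 8.32 at 0 h. New strong regions at 6 h lay at 29109403-29109676, listed at 72 h too, and at 29115221-29115454. The gene Rab44 shares this locus.

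**Figure D4:**
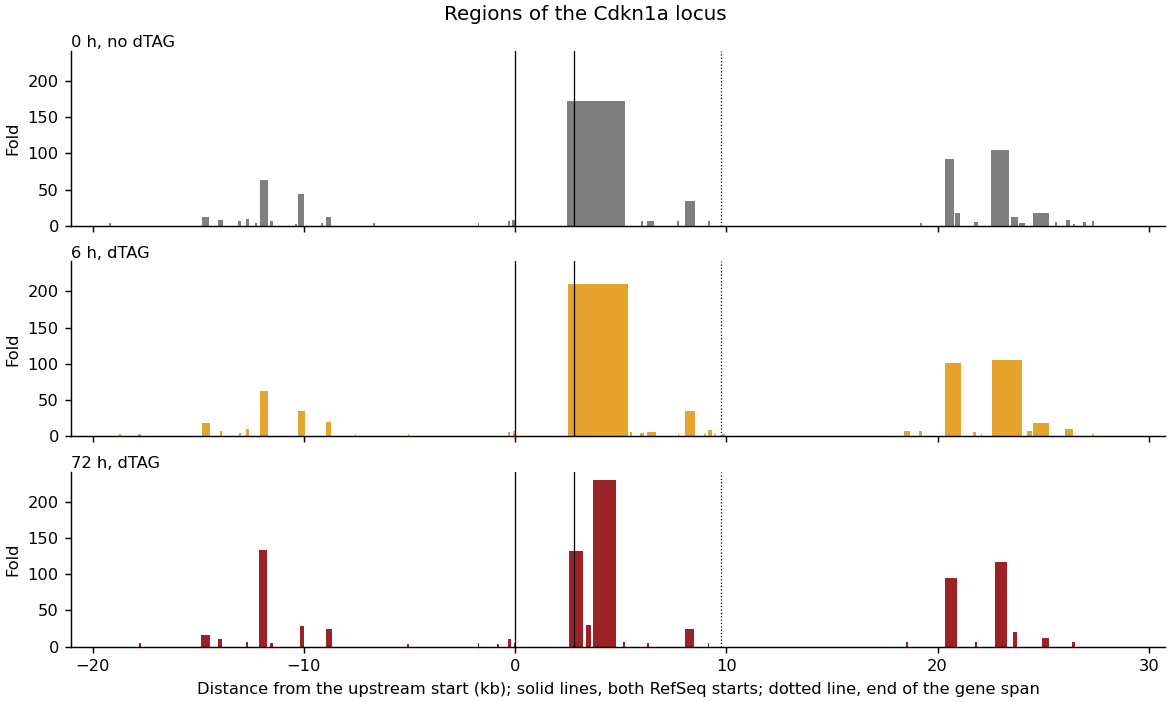
Listed regions of the Cdkn1a locus at 0, 6 and 72 h, by distance from the upstream start in kb (solid lines, both starts; dotted line, end of the span), with the region's extent as width and its summit fold as height. The single long region over the downstream start at 0 and 6 h was listed as 4 regions at 72 h, and a site upstream of both starts had folds of 63.5, 62.5 and 133.

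Cdkn1b encodes p27, the other Cip/Kip inhibitor of the set, and no other coding gene lies in its locus. The locus (span chr6:134920401-134925525) held 23, 18 and 20 regions at 0, 6 and 72 h, and 7, 6 and 9 with a fold of at least 10. Its start region had folds of 76.3, 99.5 and 115. A site inside the span, at 134921543-134921797, had folds of 4.54, 7.54 and 27.3 and percentiles of 6.65, 22.2 and 68.6, one of the largest moves in rank of the group. A site past the gene at 134926769-134927754 moved the other way, with folds of 29.5, 33.2 and 14.1. The strong region at 134927998-134928144 (fold 11.3 at 0 h) was not listed at 72 h, and a strong region at 134916848-134916969 (fold 14.1 at 72 h) was not listed at 0 h. Summed over Cdkn1a and Cdkn1b, regions numbered 47 at 72 h and 58 at 0 h, a ratio of 0.810 (0.540 to 1.21), and those with a fold of at least 10 numbered 23 and 18.

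The INK4 genes Cdkn2c, encoding p18, and Cdkn2d, encoding p19 of the INK4 family, kept the same number of high regions. The Cdkn2c locus (span chr4:109660876-109666756) held 19, 16 and 15 regions at 0, 6 and 72 h, and 7 with a fold of at least 10 at each time. Its upstream start at 109666756 had a region with folds of 65.8, 84.4 and 85.1. Within 1 kb of both of its RefSeq starts a site at 109665609-109665901 had folds of 8.32, 16.6 and 21.1 and percentiles of 29.3, 54.7 and 61.5, whereas one in the flank at 109657062-109657607 had folds of 21.9, 15.1 and 10.1. A strong region at 109660237-109660348 (fold 9.37) was new at 72 h.

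Cdkn2d held 12, 11 and 10 regions at 0, 6 and 72 h (span chr9:21288459-21291421), with 5 of fold 10 or more at each time. Its start region had folds of 169, 208 and 224 and was, with those of Cdk4 and Cdkn1a, among the highest of the group. By the highest region the Cdkn2d locus stood at the percentiles 96.4, 96.8 and 95.2 of all coding loci. At an end of the neighbour Kri1, a site at 21286642-21287126 had folds of 24.9, 35.4 and 67.9 and its neighbour at 21287478-21288400 had 147, 176 and 106. A strong region at 21292481-21292797 (fold 6.80 at 0 h) was not listed at 72 h, and one at 21298435-21298635 (fold 11.7) was new. Summed over both INK4 genes, regions numbered 25 at 72 h and 31 at 0 h, a ratio of 0.806 (0.457 to 1.41).

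Ranks put these single sites in proportion. Among the 148 member sites listed at all 3 times, 12 stood at least 25 percentile points higher at 72 h than at 0 h (8.11%), where 12.3% of all sites did. Another 7 stood at least 25 points lower (4.73%), where 11.6% of all did. At 6 h, 2 stood at least 25 points higher and 1 lower, where 2.29% and 2.10% of all sites did. The threshold of 25 points was chosen after the values were seen. Large moves in rank were thus no more frequent in these loci than elsewhere. By gene, Cdk6 had the most sites, 31 of the 148. It held 5 of the 12 sites that stood higher and 2 of the 7 that stood lower. Its median site stood 9.10 points higher at 72 h than at 0 h. The medians of Ccnd2 and Cdkn1b were 7.31 and 6.30 points higher, those of Cdkn2c and Cdkn2d were −7.60 and −5.40, and the median of all member sites was 0.418 against −0.917 for all sites.

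**Figure D5:**
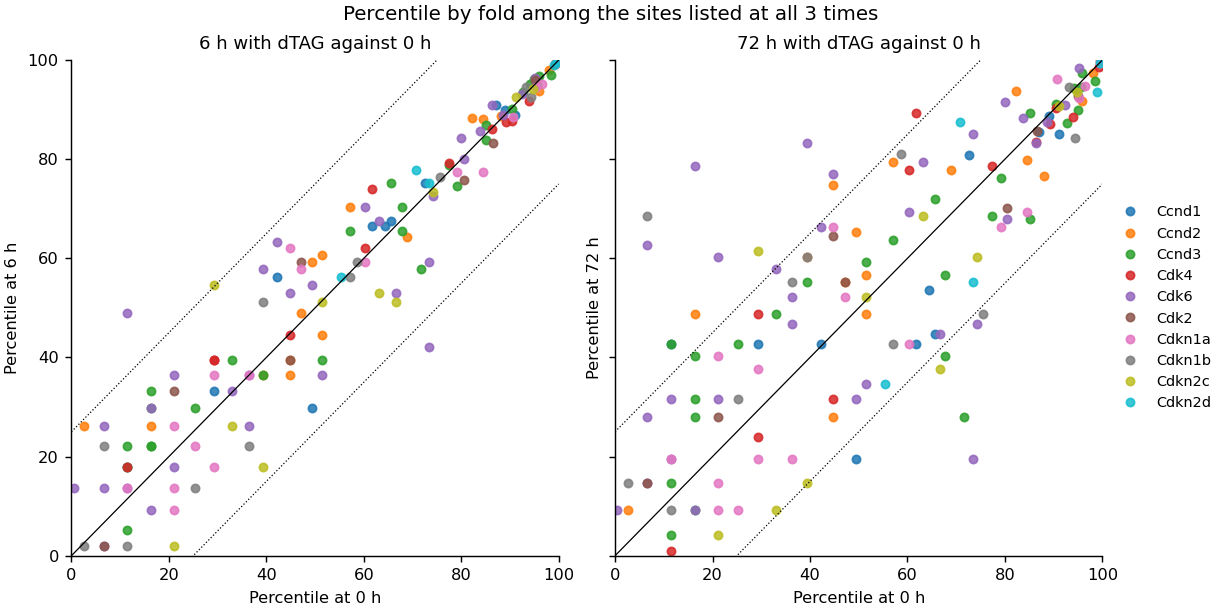
Percentile rank by fold of each member site listed at all 3 times, at 6 h against 0 h (left) and at 72 h against 0 h (right), with the diagonal and dotted lines 25 points from it. Of the 148 sites, 12 stood at least 25 points higher at 72 h than at 0 h and 7 stood at least 25 points lower.

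The other genes of the pathway were taken as a list of 33, among them cyclins E, A and B, Cdk1, Cdk7, the retinoblastoma family, the E2F factors with their partners, the CDC25 phosphatases, Wee1, Skp2, Fbxw7 and the other inhibitors. The Cdkn2a and Cdkn2b loci overlap, so a region in their shared stretch is counted in both. All 33 genes matched the annotation. Their loci held 449 regions at 72 h and 483 at 0 h, a ratio of 0.930 (0.816 to 1.06), with fewer at 72 h in 22 loci, more in 9 and the same number in 2, where 65.7% of all coding loci had fewer and 22.4% more. At 6 h they held 458, with fewer in 19, more in 8 and the same number in 6, where 43.5% of all had fewer and 35.9% more. A start region was present for 31 of the 33 genes at each time, against 62.1%, 61.7% and 57.6% of all coding genes at 0, 6 and 72 h. The largest excess at 72 h was at Fbxw7, which encodes the ubiquitin ligase subunit that marks cyclin E for breakdown, with 31 regions at 72 h and 20 at 0 h. Cdc25b, a phosphatase that activates CDK1, had 25 at 72 h and 19 at 0 h. Rbl1 had 24 and 18, and Rb1 had 32 and 26, both encoding pocket proteins that hold E2F factors. The largest deficits were at E2f8 and E2f4, each with 11 regions at 72 h and 19 at 0 h, and at Ccnb1, the gene of cyclin B1, with 3 and 10.

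Cell-type markers moved over the same times. The loci of 4 neutrophil genes (S100a8, S100a9, Fpr1 and Mmp8) held 44, 49 and 71 regions at 0, 6 and 72 h, and a start region was present for 3, 3 and 4 of them. The S100a8 and S100a9 loci overlap, so a region in their shared stretch is counted in both. Taken singly, S100a8 had 21 regions at 72 h and 11 at 0 h, S100a9 12 and 8, Mmp8 18 and 11, and Fpr1 20 and 14. The loci of 6 leukocyte and progenitor genes held 139, 141 and 118 regions at 0, 6 and 72 h. Within that list Kit, a progenitor receptor, had 7, 6 and 0 while Ptprc, the pan-leukocyte gene of CD45, had 26, 24 and 41. Mpo, a granule enzyme gene of progenitors, had 18, 31 and 8, with no region within 1 kb of its start at any time. Lymphoid (47, 36 and 24), erythroid and megakaryocyte (39, 38 and 26) and non-blood markers (48, 38 and 23) held fewer regions at 72 h than at 0 h. In the leukocyte and progenitor list, Spi1 and Cebpa, which encode myeloid transcription factors, had 35, 32 and 35 and 18, 15 and 15, and Elane, the neutrophil elastase gene, had 35, 33 and 19. Over all coding loci the ratio of regions at 72 h over 0 h was 0.850, so it was the neutrophil list that had more regions at 72 h than at 0 h where coding loci in all had fewer. The part of these differences in the values of the cyclin and CDK loci was not tested.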

How the data were processed

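Accessible regions of 3 ATAC-seq libraries, 1 each at 0 h, 6 h and 72 h, were analysed as deposited, with no read totals used here. Per the submitters' processing notes, the build was mm10 and the tools included BWA 0.7.17, MACS2 2.2.7, and bedtools 2.30.0, with FastQC 0.11.8 and MultiQC 1.10.1 also listed. HOMER, limma, edgeR and ChIPseeker are listed too, without options. The choice of fragments, the treatment of duplicates and any shift of read ends are each not given in the sources used here. In the deposited lists the authors give, per region, a position, a fold (ratio of the summit to the caller's background), and a −log10 p-value and −log10 q-value. Each list was called on its own library. The lowest folds were 3.02, 3.01 and 3.12 and the shortest regions 55, 56 and 58 bp in the 0, 6 and 72 h lists, so an unlisted place can hold signal below these.

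Scripts (Python 3.11.15, pandas 2.3.3, scipy 1.17.1) took regions overlapping each gene span with 20 kb on each side, from a RefSeq table of GRCm38.p6 that gives no exons. Starts came from the RefSeq promoter table, which matched 8 of the 10 genes; Ccnd1 and Ccnd2 had no entry. Regions were matched by an overlap of at least 1 bp, and strong regions had a −log10 q of at least 7.82, 9.25 and 13.0. Percentile ranks use the folds of 1 time. They were taken among all regions of that list, among the highest regions of all coding loci, or among the 98083 sites listed at all 3 times. Those given for a site are of the last kind. Intervals (95%) are Clopper-Pearson for shares and from the exact binomial split for ratios, for counting error only. No test was run. The scripts were checked on simulated lists. The members and lists were chosen with earlier results of these data known. Regions named are the highest, the start region, each strong region lost or gained, and, chosen after their values were seen, sites that moved in rank or stood out by height.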

Additional observations from a re-analysis of the deposited data

How the results depend on the processing

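Of 80 alternative values, 49 stayed within 1.5 times the main count or within the main interval and 31 moved. The choice that mattered most was which regions were counted. With a −log10 q of at least 10, a fold of at least 10 or equal-sized lists, the ratio of regions at 72 h over 0 h lay on the other side of 1, at 1.16, 1.20 and 1.07 in place of 0.891, where all coding loci gave 1.03, 1.11 and 1.05. With the first 2 of these, 1 and 1 member loci had fewer regions at 72 h (7 with all regions) and 2 and 2 at 6 h (6 with all regions). The loci with more regions at 72 h were then 7, 7 and, with equal-sized lists, 5 (3 with all regions). At 6 h they were 6 and 4, and 4 with flanks of 10 kb, with flanks of 50 kb, with equal-sized lists or with regions under 150 bp apart merged (1 in the main count). Under the same pair of limits, 93.6% and 96.3% of 0 h regions were overlapped at 6 h, 88.0% and 88.8% at 72 h, and 85.3% and 90.2% of 6 h regions at 0 h. With strong regions set by the same limits, 7 of 125 and 3 of 107 were lost at 72 h. At 6 h, 1 of 125 and 0 of 107 were lost, and 2 of 136 and 0 of 112 were gained. Lost or gained together they were 3 and 0 at 6 h, and 9 at 72 h with the fold limit. Shares over all listed regions were not taken under these limits, so these shares and counts cannot be set against the whole lists. Either limit leaves fewer regions than the full list by construction. The cause of the moved ratios and shares was not tested. No paired analysis was possible because each time has 1 library. Without read totals, the depth behind a region is unknown, so an unlisted region is not an absent one.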
